A study of Mus musculus with 200 samples.

Results

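The embryos compared here were 8 mouse embryos from a pair of F1 litters, 3 embryos of litter 3 and 5 embryos of litter 5, chosen by cross and litter from the 184 embryos that have a column in the count tables of the series. All 8 had a C57BL6/J (B6) mother and a Castaneus (Cast) father, the cross written B6xCast, so that every autosomal gene carried a maternal B6 allele and a paternal Cast allele. All were collected as whole embryos at embryonic day 11.5, with all extra-embryonic material removed, and the labels name no treatment or engineered allele. The litters differed in stage, which was scored by counting somites, the paired blocks of mesoderm that form in sequence from head to tail. In litter 3, embryo 1 had 63 somites, embryo 4 had 58 and embryo 3 was not counted. In litter 5, embryos 3, 4, 5, 6 and 7 had 49, 50, 50, 48 and 49 somites. Litter 3 is called the older litter and litter 5 the younger litter below. Each stage came from 1 litter, so stage, mother and litter cannot be told apart, and the p-values measure the spread between littermates. The study used these hybrids, the reciprocal CastxB6 hybrids and an N2 generation, from F1 mice backcrossed to B6, to separate effects of the embryo's genotype and of its parents on expression. The comparison of the litters asks which genes differed in level, and which in the balance of the parental alleles, between embryos of the same genotype at these stages.

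At this age the mouse embryo is building most of its organs. Red cells of the first, primitive wave, which come from the yolk sac and express embryonic globins, circulate while the fetal liver begins to release definitive red cells that express adult globins. The beta-like genes lie side by side on 1 chromosome, with Hbb-y and Hbb-bh1 expressed in the embryo and the adult genes beside them, and the alpha-like locus holds the embryonic Hba-x and the adult Hba-a1 and Hba-a2. In the same period hepatocyte precursors start to secrete plasma proteins, lens fibre cells fill with crystallins, mesenchyme condenses into cartilage, myoblasts fuse into the first muscle fibres, and neural progenitors give rise to neurons, while the tailbud is near the end of making somites.

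RNA was measured by 3SEQ, a form of RNA-seq that reads the 3′ ends of polyadenylated transcripts, and levels are given as reads per 1e6 reads on genes (RPM). Both litters were sequenced on the same pair of runs. The older embryos had 31272808 to 34110615 reads on genes and the younger 15703888 to 31208516. The first principal component of log expression held 52.9% of the variance and separated the litters. The second held 19.2%, and litter 3 embryo 1 stood apart on it. The correlation of log expression across genes was between 0.977 and 0.992 for pairs within the older litter, between 0.979 and 0.991 within the younger litter, and between 0.959 and 0.978 across litters. Xist was high in 1 of 3 older and 3 of 5 younger embryos, and genes of the sex chromosomes were left out of the tests. Of 22 markers of placenta and decidua, 14 were at 0 in all 8 embryos, and their summed level was 2.81 to 3.93 RPM in the older and 2.72 to 4.58 RPM in the younger litter. The 18 markers of yolk sac endoderm summed to 97.7 to 119 RPM in the older litter and 57.6 to 77.3 RPM in the younger. Only 3 of them reached the level needed for a test, and 2 of these, Fgb and Spp2, rose. Spp2 and Fgb are also made by the fetal liver, and the part of yolk sac tissue in these sums was not tested. The samples are whole embryos, so that a change in the number of cells of a type and a change in RNA per cell cannot be told apart.

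Genes were tested if autosomal and if their mean over the 8 embryos reached 5 RPM. Of 9449 such genes, 2405 differed between the litters at an adjusted p under 0.05 (edgeR quasi-likelihood test, Benjamini-Hochberg adjustment). Of the genes tested, 1264 (13.4%) were higher in the older litter and 1141 (12.1%) were lower. The counts for gene lists below are to be read beside these shares. The changes were mostly small: 153 of the higher and 55 of the lower genes changed by at least 2-fold, and the median log2 fold change of all genes was 0.02. RPM did not overlap between the litters for 2427 genes (25.7%) that were higher and 658 genes (6.96%) that were lower in the older litter. Scaling by total reads alone, in place of the trimmed mean of M-values (TMM), shifted the median log2 fold change up by 0.14 and made 2272 of 2810 calls (80.9%) higher in the older litter, against 52.6% with TMM scaling. All directions below are relative to the TMM scaling. The number of calls fell to 981 without litter 3 embryo 3, to 1076 without litter 3 embryo 4 and to 1331 without litter 5 embryo 7, and it was between 1922 and 2503 without any other embryo.

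**Figure D1:**
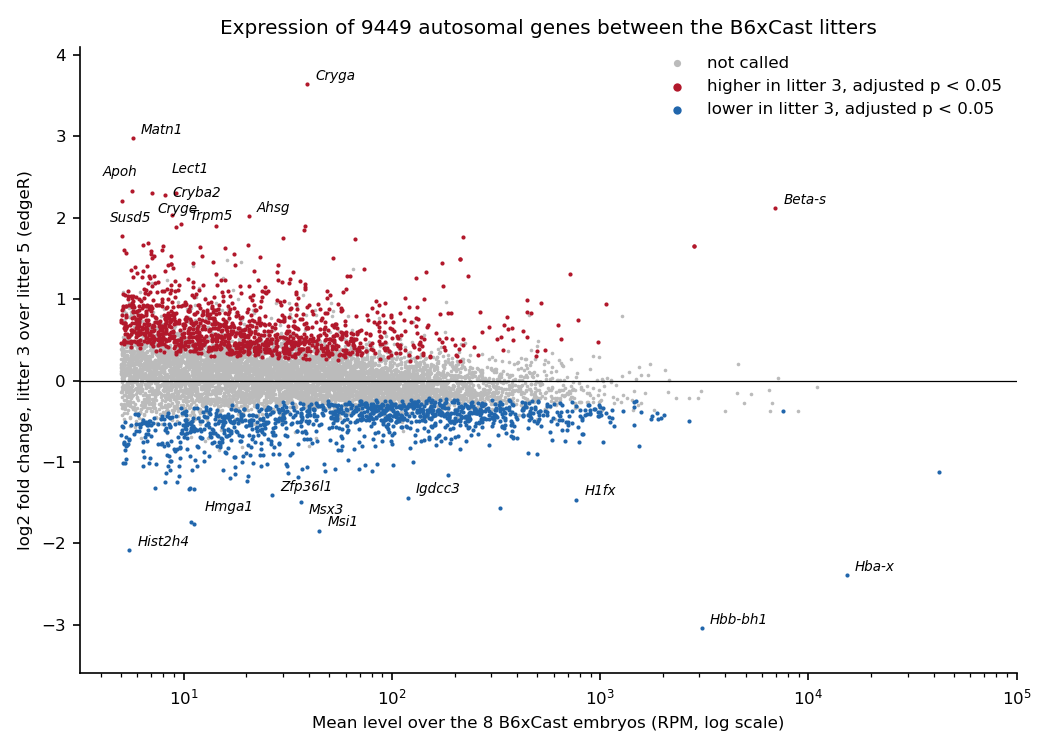
Each point is 1 of 9449 autosomal genes, with its mean RPM over the 8 embryos on a log axis and its log2 fold change (litter 3 over litter 5, edgeR) on the other, coloured by the call at adjusted p under 0.05. The labelled genes are among the 10 largest rises, led by Cryga at 3.64, and the 10 largest falls, led by Hbb-bh1 at -3.04, of called genes whose litters did not overlap in RPM.

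The largest fall was that of Hbb-bh1, an embryonic beta-like globin gene (mm9 chromosome 7, 110990150 to 110991678, minus strand). Its level was 450.2, 844 and 532 RPM in the older embryos 1, 3 and 4, and 4107, 5031, 3247, 4827 and 5519 RPM in the younger embryos 3 to 7, and embryos are given in this order throughout. Every older embryo was far below every younger one, with a log2 fold change of -3.04 ± 0.25 (SE, n = 3 and 5; adjusted p = 0.000205), or 8.24-fold. Hba-x, the embryonic alpha-like gene (chromosome 11, 32176400 to 32178116), was at 3321, 5426 and 4891 RPM in the older embryos and at 23408, 25254, 19220, 19486 and 21091 RPM in the younger ones. Its log2 fold change was -2.39 ± 0.18 (adjusted p = 0.000139), again with no overlap. Hbb-y, the most abundant embryonic beta-like globin (chromosome 7, 111000259 to 111001754), was at 22869, 30022 and 25813 RPM in the older and 55003, 59045, 50593, 50814 and 44641 RPM in the younger embryos. The means were 26235 ± 3596 and 52019 ± 5390 RPM (± SD), and the log2 fold change was -1.12 ± 0.14 (adjusted p = 0.00088). All 3 embryonic globin genes were lower in every older embryo.

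The adult beta-like globins rose. Beta-s, as the tables name an adult beta-globin gene without a position in the annotation used here, was at 13398, 14555 and 13242 RPM in the older embryos and at 2303, 3348, 4920, 2440 and 1353 RPM in the younger ones (log2 fold change 2.12 ± 0.31, adjusted p = 0.00151). Hbb-b1 and Hbb-b2 differed from each other by at most 1 read in any embryo, so that their reads were not told apart. Each was at 4830, 5479 and 4916 RPM in the older and at 1346, 1557, 2264, 1311 and 863 RPM in the younger embryos, a rise of 1.65 ± 0.23 on the log2 scale (adjusted p = 0.00125). Among the younger embryos, embryo 5 was highest and embryo 7 lowest for these genes. The adult alpha-globins Hba-a1 and Hba-a2 had identical counts and were listed at 367, 404 and 334 RPM in the older and 245, 117, 131, 42.2 and 68.8 RPM in the younger embryos (log2 fold change 1.49 ± 0.40, adjusted p = 0.0218). The litters did not overlap, but the call was lost without litter 3 embryo 3 (adjusted p = 0.0689), litter 3 embryo 4 or litter 5 embryo 7. Reads with a close second alignment were discarded, so these values may hold only a part of the adult alpha-globin reads.

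The make-up of beta-like globin RNA, a share that does not scale with the total of globin RNA in an embryo, changed with these levels. Hbb-y made up 55.04%, 58.98% and 58.004% of the reads on Hbb-y, Hbb-bh1, Hbb-b2 and Beta-s in the older embryos and 87.6%, 85.6%, 82.9%, 85.6% and 85.2% in the younger ones. Beta-s made up 32.2%, 28.6% and 29.8% in the older embryos and 3.67%, 4.85%, 8.06%, 4.11% and 2.58% in the younger ones. The older embryos thus lay together, far from the younger ones, for both genes. The share of Hbb-bh1 was 1.31% ± 0.305 (SD, n = 3) against 7.56% ± 1.96 (n = 5), and that of Hbb-b2 was 11.1% ± 0.44 against 2.39% ± 0.775. Each of the 4 shares differed between the litters with p = 0.0357 in a two-sided exact permutation test (adjusted p = 0.0357 over the 4 genes), which is the smallest p that 56 arrangements of 3 and 5 embryos allow. The CastxB6 embryos of litters 1 and 2, which had 41 to 48 somites where counted, had Beta-s at 0.753% ± 0.102 and 4.39% ± 0.882 (n = 4 each). Hbb-y, Hbb-bh1, Hbb-b2, Beta-s, Hba-x and Hba-a1 together took 4.52% to 5.67% of all reads in the older and 7.35% to 9.44% in the younger litter. Hbb-b1 and Hba-a2, whose counts repeat those of Hbb-b2 and Hba-a1, were left out of this sum.

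**Figure D2:**
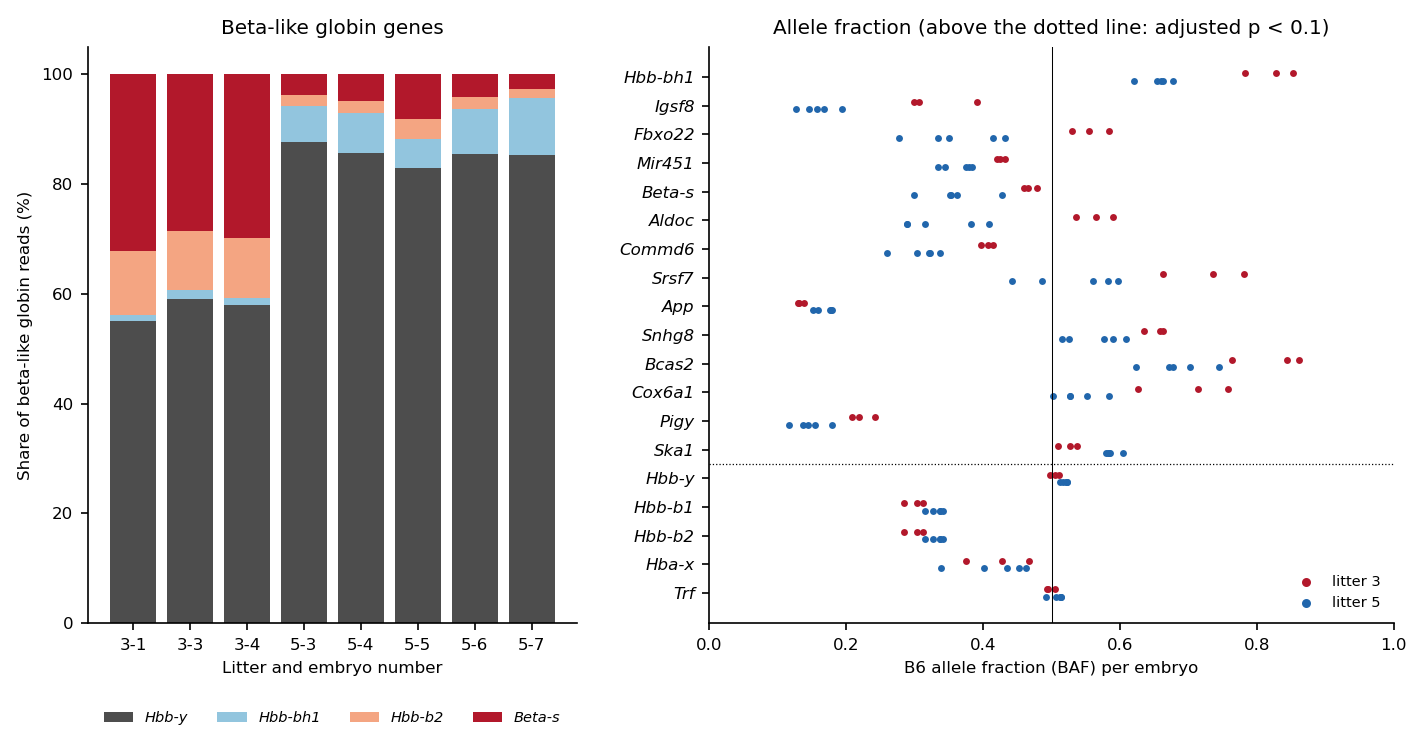
The left panel stacks, for each of the 8 embryos, the percent of beta-like globin reads that fell on Hbb-y, Hbb-bh1, Hbb-b2 and Beta-s, with Beta-s at 28.6% to 32.2% in litter 3 and 2.58% to 8.06% in litter 5. The right panel plots the B6 allele fraction of single embryos (points, coloured by litter) for the 14 genes called for allele fraction, for which the litters do not overlap, and for Hbb-y, Hbb-b1, Hbb-b2, Hba-x and Trf, which were not called.

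Other erythroid genes rose or were not called. Of 24 tested erythroid genes, 13 rose and none fell, where 13.4% of all genes tested rose and 12.1% fell, with a median log2 fold change of 0.49. Kel, a blood group gene, was at 48.6, 65.4 and 46.9 RPM in the older and 24.5, 26.3, 34.7, 16.9 and 12.98 RPM in the younger embryos (log2 fold change 1.09 ± 0.25, adjusted p = 0.0125). The blood group genes Ermap (0.93 ± 0.19) and Rhd (0.85 ± 0.20) rose on the log2 scale as well. Called members with smaller rises were Tfrc, the transferrin receptor (0.80 ± 0.16), Tal1 (0.67 ± 0.13) and Klf1 (0.42 ± 0.14), transcription factors of the red cell lineage. The erythroid genes summed to 3612 to 4105 RPM in the older litter and 2488 to 3375 RPM in the younger litter, without overlap. Without litter 3 embryo 3, 7 of them were called, and Kel (adjusted p = 0.0593), Rhd and Klf1 were not. The call of Klf1 was lost in 6 of the 8 fits that left out 1 embryo.

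Genes for proteins that the fetal liver secretes rose in most members. Of 32 tested, 28 rose and 1 fell, and the median log2 fold change was 0.94. Alb, which encodes serum albumin (chromosome 5, 90889915 to 90905629), was at 414, 423 and 373 RPM in the older and 148, 85.5, 124, 108 and 76.04 RPM in the younger embryos (log2 fold change 1.77 ± 0.17, adjusted p = 0.00033). Every older embryo lay well above every younger one. Apoh, an apolipoprotein gene (chromosome 11, 108204668 to 108275710), was at 8.47, 12.3 and 14.02 RPM against 2.87, 2.17, 2.55, 1.63 and 1.31 RPM and rose by 2.34 ± 0.23 on the log2 scale (adjusted p = 0.000333). Ahsg, which encodes fetuin-A, rose from 8.98 ± 3.21 to 39.8 ± 10.8 RPM (2.02 ± 0.27 on the log2 scale), and F2, the gene for prothrombin, from 7.85 ± 2.11 to 23.7 ± 0.833 RPM (1.46 ± 0.19). Within the older litter, embryo 1 was lowest for Apoh, Ahsg and F2 but not for Alb. The single member that fell was Hp, the gene for haptoglobin, with -0.77 ± 0.18 on the log2 scale (adjusted p = 0.0126), which is named because it was the exception and was not called without litter 3 embryo 4. The number of liver genes that rose was 20 to 27 when 1 embryo was left out, and was lowest without litter 3 embryo 3.

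The lens gave the largest rise of any gene. Cryga, which encodes a gamma-crystallin, a structural protein of lens fibre cells (chromosome 1, 65146963 to 65149947, minus strand), was at 112, 80.1 and 87.1 RPM in the older and 5.298, 4.55, 17.9, 5.86 and 1.92 RPM in the younger embryos. The log2 fold change was 3.64 ± 0.49, or 12.5-fold (adjusted p = 0.00111), and the highest younger embryo, embryo 5, stood well apart from its littermates. Of 12 tested crystallin genes, 11 rose and none fell, with a median log2 fold change of 1.70. Cryba2, a beta-crystallin gene (chromosome 1, 74936508 to 74939717), was at 17.1, 13.1 and 12.7 RPM against 2.02, 3.03, 4.58, 2.38 and 1.51 RPM. Cryge, a gamma-crystallin gene, was at 21.1, 13.9 and 14.6 RPM against 2.61, 2.65, 4.97, 3.54 and 2.08 RPM. Cryba4 was at 20.9, 13.6 and 17.4 RPM against 2.796, 2.72, 6.304, 6.39 and 3.59 RPM. The litters did not overlap for any of the 12 tested crystallin genes, and litter 5 embryo 5 was above the other younger embryos for Cryga, Cryba2 and Cryge. The log2 fold changes were 2.31 ± 0.27 for Cryba2, 2.29 ± 0.25 for Cryge and 1.88 ± 0.30 for Cryba4, and 10 or 11 crystallin genes were called when any 1 embryo was left out.

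Cartilage matrix genes rose as well, 9 of 15 tested and none fell, with a median log2 fold change of 0.79. Matn1, which encodes the cartilage matrix protein matrilin-1 (chromosome 4, 130500300 to 130511390), was at 12.98, 11.5 and 13.6 RPM in the older and 1.66, 1.28, 2.802, 0.813 and 1.03 RPM in the younger embryos, a rise of 2.98 ± 0.27 on the log2 scale (adjusted p = 0.00024). Lect1, the gene for chondromodulin (chromosome 14, 80037497 to 80061977), was at 20.5, 17.8 and 17.8 RPM against 3.83, 3.103, 4.33, 3.77 and 2.47 RPM and rose by 2.30 ± 0.16 (adjusted p = 0.000138). Susd5 rose by 2.21 ± 0.19, from 2.003 ± 0.396 to 10.2 ± 2.41 RPM. Mia1, expressed by chondrocytes, rose by 1.90 ± 0.23, from 17.8 ± 6.798 to 72.01 ± 10.01 RPM. Acan, which encodes the proteoglycan aggrecan, rose by 1.63 ± 0.17 and Matn4, another matrilin, by 1.70 ± 0.24. Without litter 3 embryo 3, 6 cartilage genes were called. Of 5 tested bone genes, Col1a2 (0.83 ± 0.21), Col1a1 (0.66 ± 0.15) and Alpl (0.36 ± 0.11) rose and Dlx5 (-0.61 ± 0.16), a transcription factor of bone, limb and forebrain, fell. The litters overlapped for Col1a2, which was at 152, 329 and 351 RPM in the older embryos and 165, 129, 149, 129 and 136 RPM in the younger ones. Col1a2 was called neither without litter 3 embryo 3 nor without litter 3 embryo 4, and its adjusted p reached 0.0866. The calls of Dlx5, whose litters overlapped, and of Alpl were lost in the same fits. Of the 8 fits that left out 1 embryo, Dlx5 was lost in 3 and Alpl in 7.

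**Figure D3:**
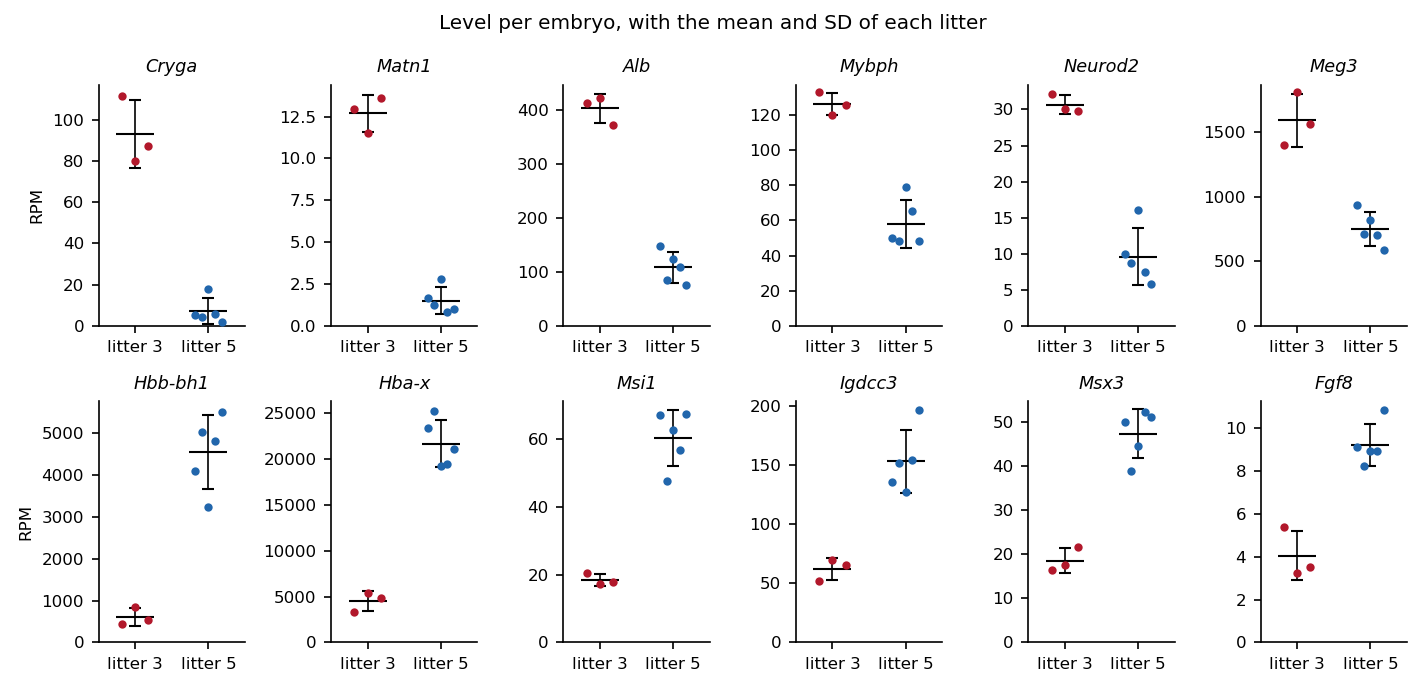
Levels in RPM (linear axes from 0) of 12 genes in each of the 8 embryos, with the mean and SD of each litter. Cryga, Matn1, Alb, Mybph, Neurod2 and Meg3 were higher and Hbb-bh1, Hba-x, Msi1, Igdcc3, Msx3 and Fgf8 lower in every embryo of the older litter than in any of the younger one.

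Genes of skeletal muscle rose, 20 of 25 tested, and 1 fell. The median log2 fold change was 0.64. Ttn, which encodes titin, was at 7.26, 12.8 and 11.8 RPM in the older and 4.42, 3.41, 4.52, 3.54 and 3.27 RPM in the younger embryos (log2 fold change 1.34 ± 0.19, adjusted p = 0.00137). Tnni2, the troponin I of fast fibres, was at 59.4, 46.9 and 51.4 RPM against 17.9, 18.3, 22.4, 23.4 and 19.2 RPM (1.24 ± 0.13, adjusted p = 0.000385). Neither gene overlapped between the litters. Myh8, a perinatal myosin heavy chain (1.02 ± 0.16), and Mybph, a myosin-binding protein (0.98 ± 0.16), rose too, as did the myogenic regulators Myod1 (0.64 ± 0.13) and Myog (0.36 ± 0.12). The member that fell was Myh7, the slow and ventricular myosin heavy chain (-0.50 ± 0.17, adjusted p = 0.0471), a call that was lost when any 1 of the older embryos was left out. Of the 20 rises, 18 were called in every fit that left out 1 embryo, and Myog was called in 1 of the 8. Heart chamber genes did not move one way: of 13 tested, Sln (1.44 ± 0.15) and Csrp3 (0.70 ± 0.12), both also expressed in skeletal muscle, rose, and Nkx2-5 (-0.76 ± 0.21), Myl7 (-0.69 ± 0.14), Myl3 (-0.46 ± 0.09) and Nppa (-0.26 ± 0.08) fell. Neither Nkx2-5 nor Nppa was called without litter 3 embryo 3 or without embryo 4. Myl7, the atrial myosin light chain, was at 296, 297 and 290.5 RPM in the older and 405, 390.1, 356, 517 and 489.9 RPM in the younger embryos.

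Among the genes of neural lists the largest change was a fall of Msi1, the gene for the RNA-binding protein Musashi-1 of neural progenitors (chromosome 5, 115879608 to 115905707). It was at 20.4, 17.2 and 17.7 RPM in the older and 67.3, 47.7, 62.7, 56.8 and 67.4 RPM in the younger embryos, without overlap (log2 fold change -1.84 ± 0.13, adjusted p = 0.000138). Of 17 tested neural progenitor genes, 5 fell and 2 rose, with a median of -0.16. Lhx2 (-0.92 ± 0.15), Hes5, a target of Notch signalling (-0.89 ± 0.11), Sox1 (-0.68 ± 0.13) and Nes, the gene for nestin (-0.67 ± 0.11), fell with Msi1. Slc1a3 (1.06 ± 0.24) and Fabp7 (0.55 ± 0.14), which mark radial glia, rose, but without litter 3 embryo 3 Fabp7 was not called and Slc1a3 was under the level needed for a test. Of 23 tested proneural and neuronal transcription factors, 10 fell and 1 rose, with a median of -0.38. The 1 that rose was Neurod2, which acts in differentiating neurons, at 32.1, 30.05 and 29.7 RPM in the older and 9.93, 8.72, 16.1, 7.43 and 5.800 RPM in the younger embryos (1.56 ± 0.24, adjusted p = 0.00218). Those that fell included Lhx9 (-0.79 ± 0.22), Lhx1 (-0.74 ± 0.13) and Neurog1 (-0.67 ± 0.14). With scaling by total reads, 3 of these transcription factors fell and 5 rose, and without litter 3 embryo 3 or embryo 4, 4 fell and 1 rose. Lhx9 was called neither without embryo 1 nor without embryo 4.

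Among genes of the cytoskeleton and synapses of neurons more rose than fell. Of 38 tested, 13 rose, 2 fell and 23 were not called, with a median log2 fold change of 0.20. Mapt, which encodes the microtubule protein tau, was at 478, 511 and 525 RPM in the older and 265, 286, 286, 263 and 240.4 RPM in the younger embryos (0.78 ± 0.08, adjusted p = 0.000385). Prph, the intermediate filament peripherin of peripheral neurons, was at 165, 139.9 and 167 RPM against 78.1, 64.02, 82.7, 98.7 and 79.9 RPM (0.83 ± 0.14). Both were without overlap. Chgb (0.96 ± 0.14) and Syn2 (0.89 ± 0.12), which belong to secretory and synaptic vesicles, rose, while Tubb3 (-0.40 ± 0.12) and Syt11 (-0.26 ± 0.08) fell. Without litter 3 embryo 3, or without embryo 4, 8 rose and none fell, and with scaling by total reads 19 rose and none fell. Of 9 tested genes of glial precursors, 4 rose and none fell, among them Aldh1l1 (1.04 ± 0.18), Cspg4 (0.77 ± 0.14) and Fabp7. Of 8 tested genes in the neural crest and pigment list, 1 rose and none fell, where 13.4% of all genes tested rose and 12.1% fell.

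Genes of the tailbud and of segmentation fell where they changed. Of 14 tested, 6 fell and none rose, with a median log2 fold change of -0.42. Fgf8, a growth factor of the tailbud, the limb ridge and brain signalling centres (chromosome 19, 45811288 to 45817405, minus strand), was at 5.37, 3.25 and 3.52 RPM in the older and 9.12, 8.24, 8.91, 8.94 and 10.9 RPM in the younger embryos (log2 fold change -1.32 ± 0.19, adjusted p = 0.0014). Every older embryo was below every younger one. Tcf15, a transcription factor of somites, was at 19.6, 21.2 and 17.4 RPM against 29.4, 36.2, 22.5, 25.8 and 37.9 RPM (-0.79 ± 0.17). Pax3 (-0.69 ± 0.19), Gdf11 (-0.66 ± 0.16), Fgf17 (-0.57 ± 0.14) and Dll3 (-0.49 ± 0.12) fell as well, and the litters overlapped for Pax3. Without litter 3 embryo 4, 3 were called, and Pax3, Gdf11 and Dll3 were not, and with scaling by total reads 4 fell and 1 rose.

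Limb bud genes fell more often than they rose, 10 against 2 of 27 tested, with a median of -0.20. Besides Fgf8, Lhx2 and Lhx9, which mark the outgrowing bud, the falls included Pitx1 (-0.71 ± 0.21), Tbx2 (-0.61 ± 0.12), Alx4 (-0.58 ± 0.18) and Msx1 (-0.56 ± 0.09), transcription factors that pattern it. The 2 that rose were Gdf5, a signal of forming joints, at 12.5, 12.3 and 14.7 RPM in the older and 6.77, 5.27, 6.24, 7.31 and 6.505 RPM in the younger embryos (0.90 ± 0.14, adjusted p = 0.00191), and Fgf10 (0.68 ± 0.21). With scaling by total reads, and likewise without litter 3 embryo 3, 6 limb genes fell. Pitx1 and Alx4 were not called without litter 3 embryo 3 or without embryo 4, and in these fits Fgf10 was under the level needed for a test. Hox genes give cells their position along the body axis. Of 12 tested of groups 1 to 5, 3 fell and 1 rose, and of 16 tested of groups 6 to 13, 3 fell and 1 rose, where 13.4% of all genes tested rose and 12.1% fell. Hoxa3 (-1.01 ± 0.15), Hoxb9 (-0.76 ± 0.14), Hoxb8 (-0.65 ± 0.12), Hoxd9 (-0.62 ± 0.15), Hoxd4 (-0.49 ± 0.10) and Hoxd3 (-0.38 ± 0.10) fell, and Hoxa5 (0.52 ± 0.12) and Hoxb6 (0.54 ± 0.12) rose. The calls of Hoxa5, Hoxb6 and Hoxd9 were lost without litter 3 embryo 3 and that of Hoxd3 without litter 3 embryo 1, and the litters overlapped for Hoxd9.

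Of 15 tested epidermal genes, 4 rose, 1 fell and 10 were not called, with a median log2 fold change of -0.16. The 4 that rose were keratins of the basal layer of epidermis. Krt14 was at 149, 133 and 139 RPM in the older and 81.6, 80.3, 89.9, 70.99 and 66.8 RPM in the younger embryos (0.72 ± 0.10, adjusted p = 0.00112), and Krt17 (0.86 ± 0.15), Krt15 (0.75 ± 0.15) and Krt5 (0.59 ± 0.11) rose with it, while Krt19 fell (-0.47 ± 0.15), a call lost without litter 3 embryo 3 or embryo 4. None of the 4 raised keratins overlapped between the litters. Of 12 tested kidney and gonad genes, 4 fell and 1 rose, where 12.1% of all genes tested fell and 13.4% rose. Sall1, needed for kidney outgrowth, was at 6.01, 6.01 and 5.17 RPM in the older and 14.02, 10.9, 11.3, 10.7 and 11.8 RPM in the younger embryos (-1.17 ± 0.13), Wnt9b (-0.71 ± 0.16) fell with it and with Lhx9 and Lhx1, and Wnt11 rose (0.63 ± 0.14). Wnt9b was not called without litter 3 embryo 3. Of 6 tested gut, pancreas and lung genes, 2 fell and 1 rose. Nkx6-1 (-0.83 ± 0.16) fell and Hnf4a (0.43 ± 0.13) rose, but Hnf4a was called in 1 of the 8 fits that left out 1 embryo. Nkx6-1 is also a gene of the ventral neural tube and Hnf4a also of the liver.

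Vessel and blood cell genes changed in both directions. Of 18 tested endothelial genes 2 rose and 1 fell, and of 22 tested genes of myeloid cells 2 rose and 4 fell, where 13.4% of all genes tested rose and 12.1% fell. Lyve1, a marker of lymphatic endothelium and of some macrophages, rose from 7.71 ± 1.47 to 17.1 ± 1.351 RPM (1.02 ± 0.16, adjusted p = 0.00218). Robo4 (0.36 ± 0.09) rose and Cdh5 (-0.55 ± 0.15) fell. Neither was called without litter 3 embryo 3 or without embryo 4. Among the myeloid genes, Ltf (1.10 ± 0.36) and Cx3cr1 (0.32 ± 0.10) rose and Prtn3 (-0.70 ± 0.13), Cd52 (-0.51 ± 0.15), Coro1a (-0.50 ± 0.11) and Itga2b (-0.50 ± 0.11) fell. The myeloid genes summed to 1580 to 1729 RPM in the older and 1276 to 1780 RPM in the younger litter, which overlapped. Neither myeloid rise was called when any 1 of the older embryos was left out, and Cd52 and Coro1a were not called without litter 3 embryo 3. With scaling by total reads, 7 myeloid and 5 endothelial genes rose.

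Genes of DNA replication and mitosis did not move one way, with 4 rises and 6 falls among 40 tested and a median log2 fold change of -0.06. For this list and the next, the shares over all genes tested were 13.4% higher and 12.1% lower. Kif11, a motor protein of the spindle, rose from 8.296 ± 2.13 to 16.2 ± 1.53 RPM (0.82 ± 0.18), and Plk1, a mitotic kinase, fell from 135 ± 6.73 to 99.4 ± 7.08 RPM (-0.58 ± 0.09). Cdk1 (0.57 ± 0.18) and Prim1 (0.55 ± 0.14) rose as well, but Cdk1 was not called in 6 and Prim1 in 3 of the 8 fits that left out 1 embryo. With scaling by total reads, 8 rose and 2 fell. Of 18 tested immediate early and stress genes, Slc2a1 (0.42 ± 0.07) and Ier3 (0.42 ± 0.14) rose and Jund (-0.63 ± 0.12) and Ier2 (-0.59 ± 0.08) fell, and the call of Ier3 was lost in 7 of the 8 fits that left out 1 embryo. Their summed level was 1981 to 2226 RPM in the older and 1967 to 2313 RPM in the younger litter.

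Several of the 10 largest falls were of genes outside these lists. Hist2h4, a replication-dependent histone H4 gene (chromosome 3, 96065627 to 96067234), was at 2.43, 1.76 and 1.68 RPM in the older and 8.09, 5.27, 8.53, 7.84 and 8.299 RPM in the younger embryos (-2.09 ± 0.21, adjusted p = 0.000343). Hmga1, a chromatin architecture protein of embryonic cells (chromosome 17, 27693565 to 27700619), was at 4.796, 5.86 and 3.96 RPM against 16.96, 13.2, 14.3, 13.5 and 17.1 RPM (-1.76 ± 0.16, adjusted p = 0.00024). Its reads may be shared with near-identical sequences, so that its level is uncertain. Igdcc3, a membrane protein of the immunoglobulin family, was at 51.6, 69.3 and 65.8 RPM in the older and 135, 152, 127, 154 and 197 RPM in the younger embryos (-1.44 ± 0.16). H1fx, a linker histone, was at 542, 259.6 and 385 RPM against 661, 747, 1174, 1341 and 1021 RPM (-1.46 ± 0.29). Values of H1fx ranged widely within each litter. Zfp36l1, an RNA-binding protein, fell from 34.03 ± 4.95 to 14.1 ± 4.28 RPM (-1.40 ± 0.19). Msx3, a homeobox gene of the dorsal neural tube, was at 16.3, 17.6 and 21.7 RPM against 49.9, 38.9, 44.4, 52.2 and 51.1 RPM (-1.49 ± 0.14, adjusted p = 0.000259). Among the 10 largest rises 1 gene was in no list, Trpm5, a cation channel of taste cells in the adult, at 18.8, 18.7 and 17.8 RPM in the older and 5.45, 4.38, 6.62, 3.42 and 2.56 RPM in the younger embryos (1.92 ± 0.23). The litters did not overlap for any of these genes, which was a condition for naming them here and not a separate result.

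**Figure D4:**
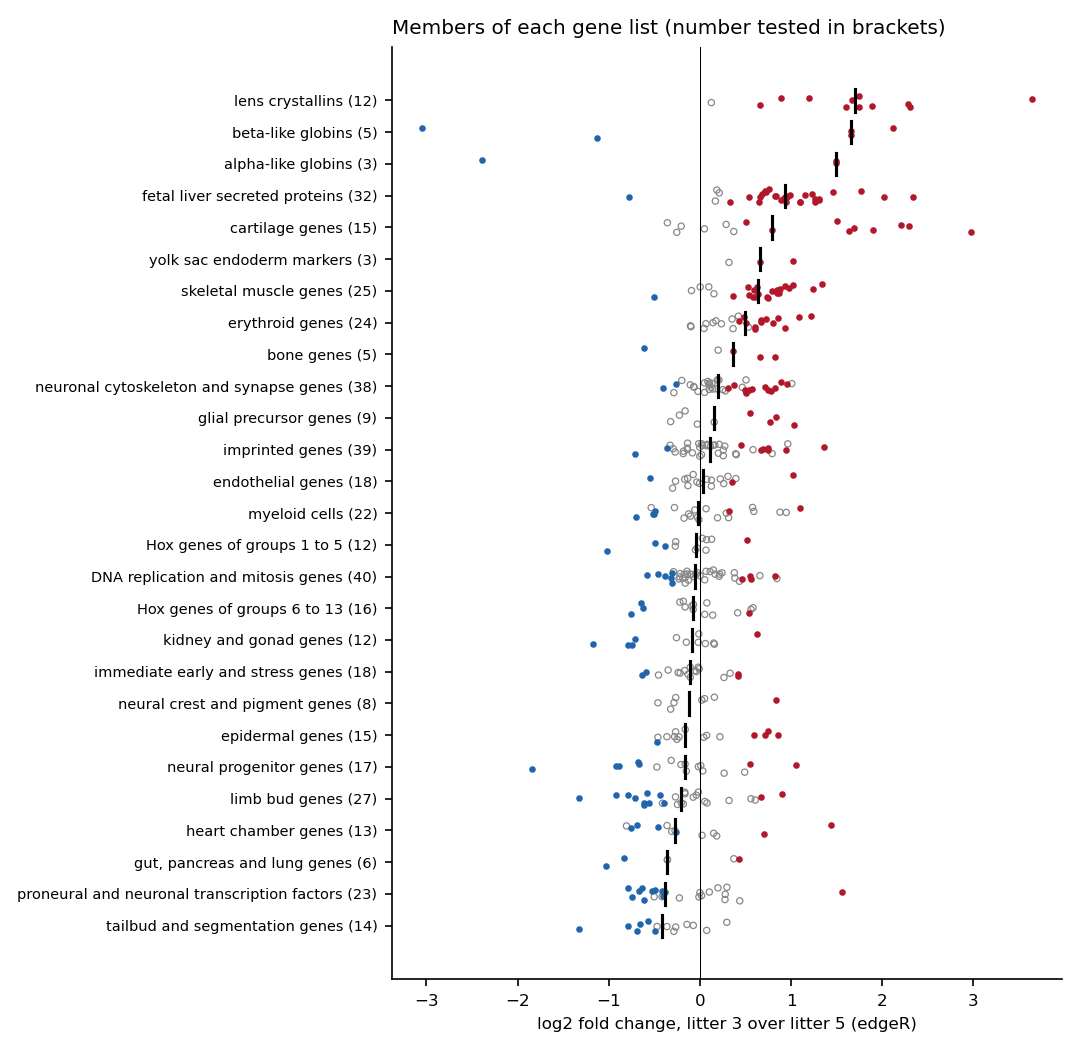
Log2 fold changes (litter 3 over litter 5) of the tested members of each gene list, 1 point per gene, filled where called at adjusted p under 0.05, with the median as a bar. Lens crystallins, fetal liver secreted proteins, cartilage genes and skeletal muscle genes lie mostly above 0, with medians of 1.70, 0.94, 0.79 and 0.64, and tailbud and proneural genes mostly below, with medians of -0.42 and -0.38.

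The reciprocal cross gave a second pair of litters that differed in stage, CastxB6 litter 1 (41 to 43 somites) and litter 2 (46 to 48 somites), with 4 embryos each and partly different sequencing runs. In the older minus younger direction, 1825 of 9499 genes rose and 1534 fell there. Of the genes that were higher in the older B6xCast litter, 693 of 1197 fitted in CastxB6 (57.9%) had the same sign, and of the lower genes 623 of 1140 (54.6%). Fetal liver genes had the same direction in 27 of 27 fitted members, 20 of them called, crystallins in 6 of 7 and skeletal muscle genes in 15 of 19. Other lists went the other way in CastxB6. The rises of 3 bone genes, of Hba-a1 and Hba-a2, of 2 neural progenitor genes and of 4 genes of DNA replication and mitosis, and the falls of 3 Hox genes of groups 6 to 13 and of 4 myeloid genes, all had the opposite sign there. Of 10 proneural and neuronal transcription factors that fell, 4 had the same sign, and of 10 limb bud genes 6. Igdcc3 had a log2 fold change of -1.51 ± 0.15 in CastxB6 (adjusted p = 3.13e-05) and Beta-s one of 1.91 ± 0.29 (adjusted p = 0.000325). The litter effect differed between the crosses, tested as an interaction over 16 embryos, for 2400 of 9499 genes (25.3%), and for 344 of 1197 (28.7%) of the higher and 511 of 1140 (44.8%) of the lower genes. Lect1, for example, rose by 2.08 ± 0.28 more in B6xCast than in CastxB6 (adjusted p = 0.00103), and Msx3 differed by -1.78 ± 0.17 (adjusted p = 7.10e-05). Between the crosses the stage range, the mother's strain and the sequencing runs differed together and cannot be told apart. Without litter 3 embryo 3, 1444 genes differed.

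The 153 N2 embryos with a somite number, which came from other mothers and other runs, covered 42 to 57 somites and were used as a description only. Of these libraries, 4 held only 27 to 358 reads on genes, and they are left out below, a choice made after seeing the data. The other 149 held 172841 to 7612442 reads. The rank correlation of RPM with somite number across them was above 0 for all 28 fetal liver genes, all 11 crystallins, all 20 skeletal muscle genes and all 9 cartilage genes that rose in the older F1 litter, and for 11 of 13 erythroid genes. Among genes that fell it was below 0 for 5 of 6 tailbud genes, 5 of 10 proneural and neuronal transcription factors, 6 of 10 limb bud genes and all 6 genes of DNA replication and mitosis. It was below 0 for none of the 3 Hox genes of groups 6 to 13 and none of the 4 myeloid genes that fell, and above 0 for none of the 2 neural progenitor genes and none of the 4 replication and mitosis genes that rose. Cryga had a mean of 0.185, 1.48, 10.4 and 23.95 RPM in N2 embryos of up to 45, 46 to 49, 50 to 52 and 53 or more somites (rho 0.74). In the same order Igdcc3 was at 232, 171, 107 and 87.7 RPM (rho -0.60) and Hbb-bh1 at 10175, 6347, 4395 and 2985 RPM (rho -0.42). Cryga thus lay higher, and Hbb-bh1 lower, in the later groups. Over all called genes, rho was above 0 for 52.9% of the 1264 higher genes, against 46.5% of genes not called, and below 0 for 47.5% of the 1141 lower genes, against 53.5% of genes not called. With all 153 libraries the shares were 49.4% against 41.8% and 52.6% against 58.2%. In both forms a smaller share of the lower genes than of the genes not called had rho below 0. The 10 largest rises all had rho above 0, and 6 of the 10 largest falls had rho below 0 (8 with all 153 libraries). H1fx went against its fall, with means of 503, 768, 819 and 880.1 RPM (rho 0.32), and so did Msi1 (rho 0.16). For some of the largest falls, N2 embryos of 46 to 49 somites were far below the mean of the younger F1 litter. Msi1 was at 4.86 against 60.4 RPM, Zfp36l1 at 4.75 against 34.03, Hmga1 at 0.515 against 15.0 and Hist2h4 at 1.23 against 7.61. Others were close, such as Msx3 at 48.6 against 47.3 RPM. Hba-a1 and Hba-a2, which rose, were also far lower in these N2 embryos, each at 8.73 against 121 RPM. The reason for these gaps was not tested. The N2 embryos share litters and sequencing lanes, and these correlations have no test.

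**Figure D5:**
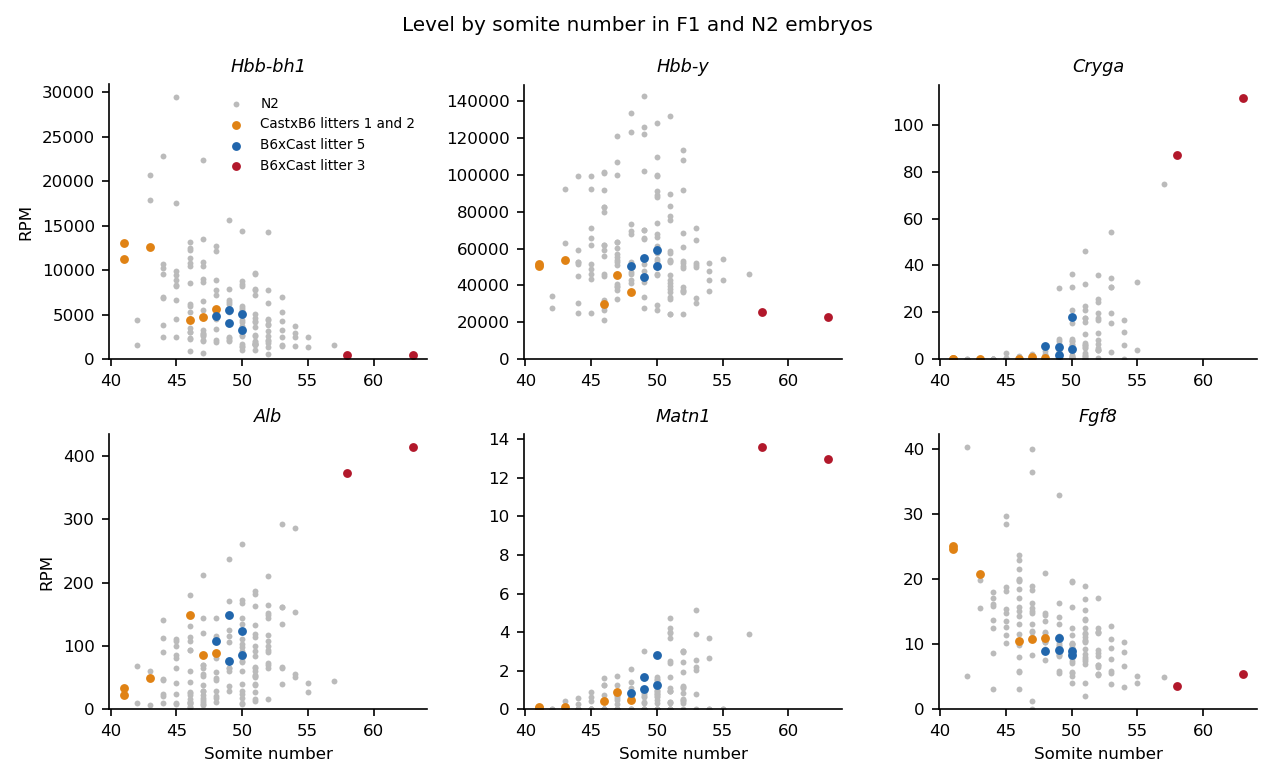
RPM (linear axes from 0) of Hbb-bh1, Hbb-y, Cryga, Alb, Matn1 and Fgf8 against somite number for the B6xCast embryos that were counted, the CastxB6 embryos and the 149 N2 embryos with at least 1000 reads. The counted embryos of the older litter, at 58 and 63 somites, lie beyond the N2 range of 42 to 57, with the highest Cryga levels and the lowest Hbb-bh1 levels among the F1 embryos.

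The balance of the parental alleles was measured as the B6 allele fraction (BAF), the share of allele-specific read votes that matched B6 among those that matched B6 or Cast. Each read with sites that differ between the strains gives 1 vote, split over its sites. For 6136 autosomal genes with at least 20 votes in each embryo, the mean BAF of the litters correlated across genes with a Pearson r of 0.934. The difference between the litters was within 0.05 for 82.1% of genes and within 0.1 for 96.8%. At an adjusted p under 0.1 (edgeR on the votes of both alleles, with the embryo as a block) 14 genes (0.228%) differed, 12 with a higher and 2 with a lower B6 fraction in the older litter, and 545 genes had an unadjusted p under 0.05. The same genes tested by limma on the logit of BAF gave 0 calls and 442 unadjusted p under 0.05. At an adjusted p under 0.05, 1 gene remained in the edgeR test. The 14 calls became 25 without litter 3 embryo 1, 3 without embryo 3, 3 without embryo 4, 1 without litter 5 embryo 4, 6 without embryo 6 and 1 without embryo 7. Of the genes called by expression and with enough votes, both alleles moved in the called direction for 619 of 673 higher and 690 of 750 lower genes. The votes are part of the reads, in the same embryos, that gave these calls. High counts thus follow largely from how the genes were chosen and are no separate test.

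The gene with the smallest p was Hbb-bh1. Its BAF was 0.783, 0.828 and 0.853 in the older embryos and 0.6596, 0.654, 0.678, 0.663 and 0.621 in the younger ones, from 68 to 1994 votes per embryo. The fraction of maternal B6 reads was higher in every older embryo, and the log2 odds differed by 1.13 ± 0.14 (adjusted p = 0.00537). The call held when any 1 embryo was left out, and the adjusted p was 0.142 with limma. As the level of Hbb-bh1 fell, its B6 votes per 1e6 reads went to 0.281 and its Cast votes to 0.134 of the younger litter's. The ratio rests on mean votes that varied widely within the younger litter, 26.01 ± 29.2 B6 votes per 1e6 reads (SD, n = 5). Beta-s had a BAF of 0.478, 0.465 and 0.4601 in the older and 0.353, 0.361, 0.428, 0.351 and 0.2995 in the younger embryos (log2 odds 0.66 ± 0.12, adjusted p = 0.0571). Its reads may be shared among near-identical adult copies, and it was called in 3 of the 8 fits that left out 1 embryo.

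Mir451, the host position of a microRNA of red cells, had a BAF of 0.4203, 0.433 and 0.425 in the older and 0.384, 0.335, 0.3796, 0.375 and 0.345 in the younger embryos, from 4616 to 20408 votes (adjusted p = 0.0571). The 3SEQ reads there come from polyadenylated RNA and not from the mature microRNA. Its RPM rose as well, by 0.99 ± 0.21 on the log2 scale. Aldoc, which encodes the brain form of aldolase, had a BAF of 0.565, 0.536 and 0.589 against 0.383, 0.316, 0.409, 0.289 and 0.289 (adjusted p = 0.0571), from 22 to 193 votes. Its B6 votes per 1e6 reads were 5.12 times and its Cast votes 1.99 times those of the younger litter, and its RPM rose by 1.22 ± 0.11 on the log2 scale. Both genes lay nearer to an equal share of alleles in the older litter or just beyond it.

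The other called genes have varied roles. Igsf8, a membrane protein gene, had a BAF of 0.298, 0.306 and 0.392 against 0.158, 0.167, 0.193, 0.127 and 0.145 (adjusted p = 0.054). Fbxo22, a ubiquitin ligase subunit gene, had a BAF of 0.555, 0.584 and 0.5297 against 0.414, 0.3498, 0.432, 0.277 and 0.334 (adjusted p = 0.057). Srsf7, a splicing factor gene, had a BAF of 0.781, 0.663 and 0.736 against 0.443, 0.582, 0.596, 0.561 and 0.486 (adjusted p = 0.062). For these 3 genes every older embryo had the higher B6 fraction. Of the 8 fits that left out 1 embryo, Igsf8 and Fbxo22 were called in 5, Mir451 in 4, Commd6, Aldoc and App in 3, Srsf7, Bcas2 and Cox6a1 in 2, Snhg8 and Ska1 in 1 and Pigy in none. Commd6, Snhg8, Bcas2, Cox6a1 and Pigy also had higher fractions in the older litter, with differences of mean BAF of 0.0979, 0.0889, 0.139, 0.161 and 0.0763. App, the gene of the amyloid precursor protein, had a mean BAF of 0.133 ± 0.00447 against 0.169 ± 0.0123 (SD), and Ska1, a kinetochore gene, 0.525 ± 0.0139 against 0.587 ± 0.00982, the only called genes with the lower fraction in the older litter. Of the 14 genes, 5 were also called by expression, where 25.5% of all genes tested for expression were called.

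The other globin genes were not called for allele fraction. Hbb-y, with 230925 to 485638 votes per embryo, had a BAF of 0.497, 0.505 and 0.511 in the older and 0.512, 0.523, 0.522, 0.517 and 0.521 in the younger embryos, which did not overlap, with an adjusted p of 0.451. Hbb-b1 and Hbb-b2 had 0.285, 0.304 and 0.312 against 0.337, 0.326, 0.337, 0.314 and 0.342 (adjusted p = 0.196). Hba-x overlapped, with 0.375, 0.427 and 0.467 against 0.402, 0.435, 0.462, 0.339 and 0.452. For Hbb-y, Hbb-b1 and Hbb-b2 the differences were small beside that of Hbb-bh1, and Hba-a1 and Hba-a2 had no votes. Trf, the transferrin gene, whose level rose by 0.95 ± 0.14 on the log2 scale, had a mean BAF of 0.497 ± 0.00636 in the older and 0.507 ± 0.00937 in the younger litter.

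Genes of an imprinted list gave a check of the allele counts where they were expressed from the allele of 1 parent. Of 25 genes of the list with enough votes, 3 had a BAF above 0.9 in every embryo, 12 were below 0.1 in every embryo and 10 lay between. Among the last, Cd81, Dcn, Dhcr7 and Begain did not switch allele with the cross and gave no such check. Their BAF was 0.529 to 0.562, 0.518 to 0.577, 0.467 to 0.660 and 0.497 to 0.610 here. In CastxB6 it was 0.501 to 0.532, 0.510 to 0.631, 0.553 to 0.760 and 0.618 to 0.824. Ppp1r9a overlapped between the crosses, at 0.435 to 0.762 here and 0.260 to 0.654 in CastxB6. None of the 25 genes was called, by edgeR, as different between the litters, and 4 had an unadjusted p under 0.05. The imprinted genes with the most votes were H19, Meg3, Cdkn1c and Cd81. Cdkn1c, a maternally expressed cell cycle inhibitor, had a mean BAF of 0.987 ± 0.00747 in the older and 0.992 ± 0.00447 in the younger litter, and Cd81 had 0.544 ± 0.00685 against 0.544 ± 0.0131. H19 and Meg3 were above 0.99 in all embryos other than litter 5 embryo 3, where H19 was 0.872 and Meg3 was 0.968. In level, 7 of 39 tested imprinted genes rose and 2 fell, where 13.4% of all genes tested rose and 12.1% fell. Meg3, a maternally expressed noncoding RNA, was at 1403, 1808 and 1562 RPM in the older and 939, 712, 818, 707 and 589 RPM in the younger embryos (0.95 ± 0.13, adjusted p = 0.00128). Its paternally expressed neighbour Dlk1 was at 1199, 997 and 1102 RPM against 495, 568, 828, 528 and 569.6 RPM (0.74 ± 0.15). Both were without overlap. Dcn (1.37 ± 0.31), whose litters overlapped and which was not called without litter 3 embryo 3 or without embryo 4, and Copg2 (0.75 ± 0.16) rose, and Peg10 (-0.71 ± 0.10) and Dhcr7 (-0.37 ± 0.08) fell. With scaling by total reads, 14 rose.

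Averaged over all 6136 genes, BAF was 0.5014, 0.5026 and 0.5016 in the older and 0.5011, 0.5006, 0.5013, 0.5012 and 0.5010 in the younger embryos. The mean was 0.000819 higher in the older litter (two-sided exact permutation test, p = 0.0357, the smallest that 56 arrangements allow). The direction turned when votes were summed over genes, a sum in which abundant genes weigh most, where the difference was -0.00481 (p = 0.0357). Without litter 3 embryo 3 the difference of the averages was 0.000462. The average lay close to 0.5 in both litters, and the direction of its difference depended on how genes were weighted. With 50 votes in each embryo the difference was 0.000630 (exact permutation test, p = 0.0714).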

How the data were processed

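RNA of 8 whole B6xCast F1 embryos was compared, with 8 CastxB6 and 153 N2 embryos for reference. The authors trimmed poly(A) from 3SEQ reads, mapped them with Bowtie2 to mm9 and an in silico Cast genome, discarded reads with a close second alignment, and deposited raw read counts on RefSeq exons for 22033 genes, with the 2 sequencing runs of an F1 embryo as 1 value. The authors also deposited expected counts of allele votes, in which each read splits 1 vote over its SNPs, and codes for N2 genotypes (0.5 heterozygous), which were used only to choose heterozygous N2 embryos. A further 8 N2 columns had no sample in the labels and were not used.

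Counts were tested with edgeR 4.0.16 in R 4.3.3 (quasi-likelihood, TMM, mean of at least 5 RPM, autosomes, Benjamini-Hochberg adjusted p under 0.05), with litter as the only term. SE is the absolute log2 fold change divided by the square root of F. Votes were rounded and tested with edgeR with the embryo as a block (20 votes in each embryo, adjusted p under 0.1). The difference between crosses was an interaction over 16 embryos. Mean BAF and globin shares used exact permutation tests. DESeq2 1.42.0, limma 3.58.1, other filters and scalings, the somite number in place of litter, a replicate block and leaving out each embryo were alternatives. Thinning all libraries to the smallest total and leaving out N2 libraries with under 1000 reads were added after seeing the data. Scripts were tested on simulated data. The embryos compared and the 29 gene lists were chosen with earlier results of these data known.

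Genes were named by a rule: the 10 largest rises and falls among called genes without overlap of the litters, up to 4 called members with the largest change per list, all globin genes, and for BAF the 10 called genes with the smallest p, Trf and the 4 imprinted genes with the most votes. Other named members were chosen after their values were seen, as the remaining calls of a list. A few genes that the rule names are not reported here. Coordinates are those of GENCODE on mm9, and gene names are those of the deposited tables. No sequence was used. Embryo numbers 3 and 4 occur in both litters but name different animals of different mothers. Depth was 15703888 to 34110615 reads on genes, and intervals beyond the spread between embryos were not computed.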

Additional observations from a re-analysis of the deposited data

Results flagged for a closer look

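Of 154 sets of 5 values from the younger litter, 14 had 1 embryo far from the others by Dixon's test, and chance flags about 1 in 20 such sets. The gap to the nearest embryo, as a share of the range (critical value 0.71), was 0.753 for Cryga, 0.715 for Mia1, 0.745 for Hnf4a and 0.776 for Dlk1 in RPM, all with litter 5 embryo 5 highest. It was 0.786 for Hist2h4 and 0.717 for Syn2, where embryo 4 was lowest and highest, 0.905 for Fabp7, where embryo 3 was highest, and 0.752 for Nkx6-1, where embryo 3 was lowest. In BAF it was 0.989 for H19 and 0.982 for Meg3, both lowest in embryo 3, with H19 at 0.872 and Meg3 at 0.968. The same embryo had a BAF of 0.00909 for Igf2, 0.00247 for Mest and 0 for Snrpn, within or near the range of its littermates. The gap was 0.755 for Ska1 and 1 for Ndn, both with embryo 7 highest, 0.790 for Dlk1 with embryo 6 lowest, and 0.815 for Blcap with embryo 5 highest.

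The effect of litter differed between B6xCast and CastxB6 for 38 of 91 named genes that were tested, by the interaction in edgeR at adjusted p under 0.05. Most of them were named for their litter effect in B6xCast, which is part of the interaction, so this count can be raised by the choice of genes. The values are B6xCast minus CastxB6 on the log2 scale, each older minus younger. Blood genes differed by -1.56 for Hbb-bh1, -1.12 for Hba-x, 2.03 for Hba-a1 and Hba-a2, 1.08 for Kel, 0.91 for Ermap and 1.30 for Rhd. Cartilage, bone, liver and muscle genes differed by 2.08 for Lect1, 1.10 for Col1a2, 1.38 for Col1a1, 0.92 for F2, 0.61 for Tnni2, 1.05 for Sln and 1.38 for Csrp3. Neural and glial genes differed by -1.06 for Msi1, -1.78 for Msx3, -0.78 for Lhx9, -1.20 for Lhx1, 0.59 for Syn2 and 0.69 for Cspg4. Patterning genes differed by -0.97 for Gdf11, -1.10 for Hoxa3, 0.82 for Hoxa5, -0.92 for Hoxb9, -0.69 for Hoxb8, -1.33 for Hoxd9 and -1.12 for Wnt9b. Myeloid genes differed by -1.73 for Prtn3, -1.16 for Cd52 and -0.95 for Coro1a. The remaining differences were -1.26 for Hmga1, -1.75 for H1fx, -0.96 for Zfp36l1, 1.71 for Cdk1, 0.66 for Meg3, 0.82 for Dlk1, 0.91 for Slc2a1 and -0.68 for Ier3. The crosses differed in stage range, in the strain of the mother and in the sequencing runs of the CastxB6 litters, which cannot be told apart.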

How the results depend on the processing

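The count of genes called between the litters, 2405, was within 1.5 times of that under DESeq2 (2921), limma voom (2485), DESeq2 size factors (2377), scaling by total reads (2810), a filter of 1 RPM (3310 of 12781 genes), no filter (3483 of 17798), all chromosomes (2439), globin genes left out of the library sizes (2380) and thinning to the smallest total (2197, chosen after seeing the data). With somite number in place of litter as the only term, 497 genes were called on the somite slope. That fit leaves out the uncounted embryo, and somite number follows the litters closely. No fit held both terms, so no litter call was adjusted for somite number. The count between litters was 1555 in a fit of all 16 F1 embryos, 919 with at least a 1.5-fold change, and 981 to 2503 with 1 embryo left out. With a replicate block it was 1022 (631 higher, 391 lower). The embryo numbers 3 and 4 are the only ones in both litters, and same-numbered embryos deviated together with r = 0.334 and 0.331, but they have different mothers, so the numbers are not a pairing. The difference between crosses was called for 2400 genes and for 1444 to 2497 with 1 embryo left out. The 14 allele fraction calls were 8 with 50 votes, 12 with 10 votes, 0 with limma (smallest adjusted p 0.142), 1 at adjusted p under 0.05, and 1 to 25 with 1 embryo left out. The mean BAF difference of 0.000819 was -0.00481 with votes summed, 0.000630 with 50 votes (exact permutation p = 0.0714), and 0.000462 to 0.00104 with 1 embryo left out. The globin shares kept their direction with RPM in place of the share and, for the 3 genes other than Beta-s, with Beta-s left out of the sum (p = 0.0357 each, the smallest possible), and with 1 embryo left out they are values without a test. For named genes, 1784 of 1956 expression values under the alternatives kept direction and side of the threshold, 172 were weaker and none reversed, and of the allele fraction values 91 were weaker and 2, both of Hba-x and past no threshold, changed sign. Except where the construction shows it, the cause of these changes was not tested. With 3 older embryos from 1 litter, differences that were small beside the spread between littermates could go uncalled, though some genes with overlapping litters were called. A second litter of either stage was not analysed here.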

Other observations

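Genes on the X chromosome were outside the comparisons above. In the embryos with high Xist the summed B6 share of X-linked votes, which in this cross is the maternal share, was 0.335 in litter 3 embryo 3 and 0.277, 0.351 and 0.297 in litter 5 embryos 3, 6 and 7. In the other 4 embryos it was between 0.997 and 0.999. The maternal X thus gave fewer votes than the paternal X in each of the 4 embryos with high Xist.

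The genes for 2 matrix proteins, picked after their values were seen, varied within the older litter. Col1a2 was at 152, 329 and 351 RPM and Dcn, the gene for decorin, at 63.5, 155 and 150.5 RPM in older embryos 1, 3 and 4, so that embryo 1, which had the most somites, was lowest for both. Col1a1, at 442, 364 and 389 RPM, was highest in that embryo.

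The BAF of Hbb-b2 was 0.3003 ± 0.0141 in the older and 0.331 ± 0.011 in the younger B6xCast litter, and 0.398 ± 0.0575 and 0.327 ± 0.0472 in CastxB6 litters 1 and 2. In heterozygous N2 embryos the summed fraction was 0.564, 0.530, 0.512 and 0.524 from the lowest to the highest somite group. For Hbb-bh1 it was 0.628, 0.712, 0.771 and 0.741 in the same N2 groups, and for Beta-s 0.243, 0.321, 0.418 and 0.423, the last group holding 3 embryos for each. Other called genes varied there. Commd6, higher in the older F1 litter, was at 0.285, 0.328, 0.325 and 0.359. Mir451, also higher in it, changed little, at 0.367, 0.358, 0.370 and 0.379. Srsf7, higher in it too, was at 0.472, 0.513, 0.445 and 0.286, the last from 1 embryo. App, lower in it, was at 0.084, 0.114, 0.120 and 0.113. These N2 fractions have no test.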
